A study of Mus musculus with 8 samples.

Results

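The data collected cover 10 genes tied to the identity of regulatory T cells (Tregs), measured by RNA sequencing of TNFR2+ Tregs and their TNFR2- counterparts. They were Foxp3 and its neighbour Flicr, the 5 Ikaros family genes Ikzf1 to Ikzf5, and Nrp1, Izumo1r and Capg. The 10 were chosen by name from 20172 genes in the table, through their Ensembl identifiers, and all 10 passed the filter on low values (a mean normalized count of at least 10 over the 8 libraries). CD4+ YFP+ Tregs had been sorted from the spleens of female Foxp3 YFP-cre mice into a TNFR2+ group and a TNFR2- group, with 4 libraries in each. Both groups carried the same allele, in which a YFP-Cre fusion is driven by the Foxp3 locus, and the labels give no treatment. The methods of the paper state that mice of both sexes were used, without naming the sex for this experiment. The zygosity of the allele was not given in the sources used here. The number of replicates is stated there beside the mice, without saying whether a library came from a single mouse or a pool, or whether both groups came from the same mice, so the p-values measure the spread between these libraries. The cells were gated on the Foxp3 reporter, so both groups were selected for activity of the Foxp3 locus.

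Foxp3 is the forkhead transcription factor that defines Tregs, and loss of its function causes fatal autoimmunity. Flicr is a long noncoding RNA of the same locus, known for restraining Foxp3 expression. The Ikaros family are zinc finger transcription factors that bind DNA through fingers near the amino terminus and pair with each other through fingers near the carboxy terminus. Ikzf1 encodes Ikaros, Ikzf2 Helios, Ikzf3 Aiolos, Ikzf4 Eos and Ikzf5 Pegasus. Helios and Eos are known as Treg-associated members, Eos as a corepressor partner of Foxp3, while Ikaros and Aiolos act broadly in lymphocyte development. Nrp1 encodes neuropilin-1, a receptor for semaphorins and vascular growth factors that is used as a marker of thymus-derived Tregs. Izumo1r encodes folate receptor 4, a surface protein used to identify Tregs, and Capg encodes a gelsolin-like protein that caps actin filaments.

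Sequence shared between genes bears on which values can be read separately, and the Foxp3 start region is shown because it also lies in Flicr. The RefSeq window around a Foxp3 start (250 bases before to 50 after it, chrX:7579426-7579725 of GRCm38.p6, plus strand) lay wholly inside the last exon of Flicr, which is 3120 bases long (chrX:7577908-7581027). The capitals mark the only match in this window to TGGGAA or its reverse complement TTCCCA, the core bound by Ikaros-type fingers.
Foxp3 start window: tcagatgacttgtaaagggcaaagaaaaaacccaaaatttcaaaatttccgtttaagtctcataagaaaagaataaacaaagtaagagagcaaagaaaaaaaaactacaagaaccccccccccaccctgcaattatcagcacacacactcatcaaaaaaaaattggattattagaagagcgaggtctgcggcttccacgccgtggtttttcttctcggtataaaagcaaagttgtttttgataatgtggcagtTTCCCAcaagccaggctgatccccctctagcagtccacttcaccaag
A second RefSeq start window of Foxp3 (chrX:7580233-7580532) also lay inside that exon. In all, 7 of the 10 genes had 9 start windows in the table. Either strand of the Ikaros-type core was found in 2 of these 9 windows, the one shown and that of Capg with 2 matches, against 25.56% of all 32851 windows. The forkhead core TGTTTAC, searched on both strands, was found in 0 of the 9 windows, against 3.65% of all windows. Such matches describe letters and are not measured binding sites.

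Foxp3 (chrX:7573644-7595245) and Flicr (chrX:7573600-7581027) are annotated on the same strand. They shared 853 exonic bases in 5 stretches, which was 23.81% of the exonic bases of Flicr and 18.64% of those of Foxp3. Among 10 annotated Foxp3 transcripts, 8 shared exonic sequence with Flicr and 7 began inside its last exon. Of all runs of 31 bases, 21.5% of those in Flicr occurred in Foxp3 too. Because the genes run in the same direction, a stranded library cannot separate reads from the shared stretches, and the split between the pair depends on how reads were assigned. Exons of the neighbour Ppp1r3f on the opposite strand covered 8.65% of Flicr, and most of those bases lay in a stretch shared with Foxp3. Exons of Ccdc22 on the opposite strand covered 12.89% of Foxp3, mean 3126 normalized counts in TNFR2+ Tregs, while Ccdc22 itself averaged 167 there. The library kit kept strand, but the strand setting of the counting was not given in the sources used here.

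The Ikaros genes are similar enough that their separability also had to be checked, and the second finger that matches the zinc finger pattern is shown for each. Each line is the coding strand from GENCODE transcripts on GRCm38, with the codons of the 2 cysteines and 2 histidines that hold the zinc in capitals.
Ikzf1 (chr11:11754024-11754086, plus strand): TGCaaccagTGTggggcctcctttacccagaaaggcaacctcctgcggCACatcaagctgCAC
Ikzf2 (chr1:69570581-69570643, minus strand): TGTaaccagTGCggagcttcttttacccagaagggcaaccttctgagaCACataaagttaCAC
Ikzf3 (chr11:98488940-98489002, minus strand): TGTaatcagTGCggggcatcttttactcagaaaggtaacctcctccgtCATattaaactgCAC
Ikzf4 (chr10:128640229-128640291, minus strand): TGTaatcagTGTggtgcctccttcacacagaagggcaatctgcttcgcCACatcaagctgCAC
Ikzf5 (chr7:131392501-131392563, minus strand): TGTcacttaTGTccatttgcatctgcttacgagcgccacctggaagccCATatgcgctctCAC
Over these 63 bases, pairs among Ikzf1 to Ikzf4 differed at 10 to 15 positions, and Ikzf5 differed from each of them at 33 to 37. Despite this likeness, long exact runs were rare. Ikzf2 and Ikzf4 shared 3 runs of 31 bases, and the other 9 pairs shared 0. Ikzf5 was the exception in another respect. Runs of 31 bases shared with the processed pseudogene Gm10356, which was not in the table, made up 16.02% of its runs, and exons of Pstk on the opposite strand covered 81.31% of its exonic bases. Its values are therefore uncertain.

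The sum of normalized counts in a library ranged from 9576920 to 11492762, and 13990 genes were tested with limma on log2(normalized count + 1). Of these, 1107 had an adjusted p under 0.05, which is 7.91% of genes, and 633 were higher and 474 lower in TNFR2+ Tregs. Without TNFR2+ replicate 2 the number was 636, without TNFR2+ replicate 3 it was 693 and without TNFR2- replicate 2 it was 711. Tnfrsf1b, which encodes TNFR2 and on whose protein the cells were sorted, averaged 2501 ± 544 (SD, n = 4) against 1321 ± 168 (SD, n = 4). TNFR2- replicate 3 stood apart from the other 7 libraries on the second principal component. Without it 1324 genes were called, and the changes of Foxp3, Ikzf1, Ikzf2 and Ikzf3 are given below with and without it. The T cell markers (7 of 7 in the table) had sums of 21562 to 25315 across TNFR2+ libraries and of 17389 to 21326 across TNFR2- libraries. Of these 7, Cd3e alone was called, higher in TNFR2+ Tregs (0.51, limma adjusted p = 0.00919). The B cell markers (9 of 11 analysed) summed to 3988 to 6033 and 1833 to 2919. Most of this sum was Ighm, at 3433 to 5576 and 1583 to 2404, and Cd22 followed at 273 to 350 and 54.7 to 223. Ms4a1 reached 99.4, Cd79b 64.6, Ebf1 80.4, Bank1 43.7 and Pax5 41.5 at most in a library, Cd79a 6.10 and Blk 3.41. Of the 6 tested, 1 (Ighm) was called. The myeloid markers (5 of 11) summed to 17.1 to 55.7 and 48.4 to 112. The dendritic markers (6 of 7) summed to 503 to 756 and 433 to 916, with Xcr1 called lower (-0.83, limma adjusted p = 0.0498). The cytotoxic lymphocyte markers (4 of 7) summed to 84.1 to 148 and 48.9 to 93.9, with Nkg7 called higher (3.19, limma adjusted p = 0.00927, 49.2 to 92.3 against 2.03 to 18.4). The CD8 T cell markers (2 of 2) summed to 46.0 to 64.2 and 44.5 to 76.1. The erythroid marker analysed (1 of 7) did not exceed 12.1, and the platelet marker (1 of 5) ranged from 12.2 to 221 and from 31.2 to 178. The endothelial markers (3 of 5) summed to 913 to 1520 and 1739 to 3204, almost wholly from Pecam1, with Cdh5 and Kdr at no more than 22.1 in any library. Pecam1 was called lower (-1.18, limma adjusted p = 0.00344). The part of these markers in the results below was not tested, and in bulk samples fewer cells of a type and less RNA per cell cannot be told apart.

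Of the 10 genes, 7 had an adjusted p under 0.05, against 7.91% of all genes tested. Higher in TNFR2+ Tregs were 5 (Ikzf2, Ikzf4, Nrp1, Izumo1r and Capg), where 4.52% of all genes were called higher, and lower were 2 (Ikzf1 and Ikzf3), where 3.39% were called lower. In the same 7 genes the 4 values of one group did not overlap the 4 of the other, which held for 15.4% of all genes. The 10 genes were chosen with earlier results of these data known, so these shares are descriptive and not independent evidence. Foxp3, Flicr and Ikzf5 did not pass. For each of the 7, an exact two-sided permutation test over the 70 ways of splitting the libraries gave p = 0.0286, the smallest that 4 libraries against 4 allow. The median log2 fold change of the 10 genes was 0.26, beside -0.0095 over all genes tested.

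**Figure D1:**
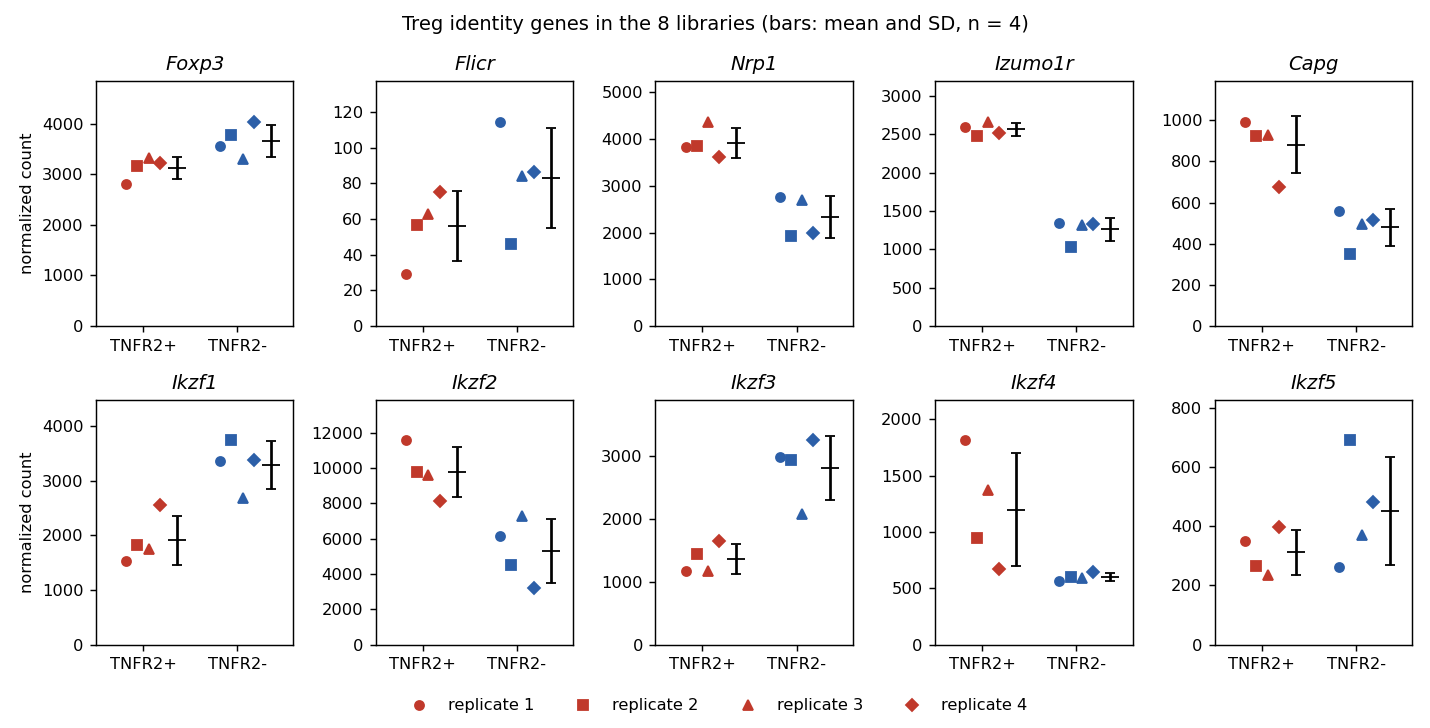
Normalized counts (vertical axes, each starting at 0) of the 10 genes in each TNFR2+ (red) and TNFR2- (blue) library, with marker shape giving the replicate number and black bars the mean and SD (n = 4 per group). The groups are separate for Ikzf1, Ikzf2, Ikzf3, Ikzf4, Nrp1, Izumo1r and Capg, narrowly so for Ikzf4 (668 against 647), and they overlap for Foxp3, Flicr and Ikzf5.

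Foxp3 RNA was not called different between the groups. Its normalized counts were 2812, 3153, 3313 and 3226 in TNFR2+ replicates 1 to 4 and 3557, 3775, 3292 and 4033 in TNFR2- replicates 1 to 4. The TNFR2- libraries were mostly higher, and the groups overlapped because TNFR2+ replicate 3 exceeded TNFR2- replicate 3. The means were 3126 ± 219 and 3664 ± 316 (SD, n = 4). The log2 fold change (TNFR2+ over TNFR2-, as for every fold change here) was -0.23, with a standard error of 0.11 and a 95% interval of -0.46 to 0.01, and the limma adjusted p was 0.232. On a linear scale that interval runs from 0.726-fold to 1.00-fold. The exact permutation p was 0.0571. Without TNFR2- replicate 3 the log2 fold change was -0.28 with a limma adjusted p of 0.149, and with values rescaled to a common sum it was -0.14 with a limma adjusted p of 0.457.

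Flicr was present at low levels and varied widely within both groups. It measured 29.4, 56.8, 63.1 and 75.4 normalized counts in TNFR2+ replicates 1 to 4, and 114.6, 46.2, 84.3 and 86.2 in TNFR2- replicates 1 to 4. TNFR2- replicate 2 lay below 3 of the TNFR2+ libraries, so the groups overlapped. The log2 fold change was -0.56 with a 95% interval of -1.45 to 0.33 (limma adjusted p = 0.461, exact permutation p = 0.229). It was -0.28 without TNFR2+ replicate 1 and -0.81 without TNFR2- replicate 2. The log2 ratio of Foxp3 to Flicr within a library averaged 5.85 ± 0.48 in TNFR2+ and 5.52 ± 0.59 in TNFR2- Tregs (SD, n = 4). These ratios differed by 0.33 (exact permutation p = 0.4), by 0.10 without TNFR2+ replicate 1, by 0.14 without TNFR2- replicate 1 and by 0.60 without TNFR2- replicate 2, and a change in the balance of the pair was not detectable against this spread.

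Within the Ikaros family, the members fell into opposite directions. Ikzf2 (Helios) and Ikzf4 (Eos) were higher in TNFR2+ Tregs, and Ikzf1 (Ikaros) and Ikzf3 (Aiolos) were lower.

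Ikzf2 (chr1:69531214-69687245) had the highest normalized counts of the 5. It measured 11555, 9780, 9598 and 8119 in TNFR2+ replicates 1 to 4 and 6163, 4486, 7270 and 3180 in TNFR2- replicates 1 to 4. Every TNFR2+ library was above every TNFR2- library, and the spread within TNFR2- Tregs was more than 2-fold. The means of 9763 ± 1407 and 5275 ± 1806 (SD, n = 4) corresponded to a log2 fold change of 0.95 (standard error 0.21, 95% interval 0.49 to 1.40, limma adjusted p = 0.0145). Without TNFR2- replicate 2 it was 0.89 with an adjusted p of 0.0507, and without TNFR2- replicate 3 it was 1.12 with an adjusted p of 0.00307, both in limma.

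Ikzf4 (chr10:128630843-128645991) showed a different distribution from Ikzf2. It ranged from 668 to 1814 in TNFR2+ Tregs, with 1814, 946, 1370 and 668 in replicates 1 to 4, while the TNFR2- libraries were close together at 565, 602, 591 and 647. The rise was carried by TNFR2+ replicates 1 to 3, and replicate 4 was 20.7 normalized counts above the highest TNFR2- library. The means were 1200 ± 501 and 601 ± 34.2 (SD, n = 4). The log2 fold change was 0.90 (standard error 0.25, 95% interval 0.36 to 1.43, limma adjusted p = 0.0425). This call was fragile. It was kept without TNFR2+ replicate 4 (1.15, adjusted p = 0.00644 in limma) and lost when any of the other 7 libraries was left out, with log2 fold changes of 0.67 to 0.98 and limma adjusted p of 0.0629 to 0.126.

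Ikzf3 (chr11:98464902-98546031) fell most among the 10 genes. Its normalized counts were 1178, 1445, 1166 and 1655 in TNFR2+ replicates 1 to 4 and 2979, 2942, 2070 and 3251 in TNFR2- replicates 1 to 4. TNFR2- replicate 3 was the lowest of its group and still above every TNFR2+ library. The means were 1361 ± 235 and 2811 ± 512 (SD, n = 4), for a log2 fold change of -1.04 (standard error 0.16, 95% interval -1.40 to -0.69, limma adjusted p = 0.00199). Without TNFR2- replicate 3 it was -1.18 (limma adjusted p = 5.22e-04).

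Ikzf1 (chr11:11685003-11772926) fell as well. It measured 1523, 1816, 1748 and 2557 in TNFR2+ replicates 1 to 4, and 3357, 3741, 2680 and 3389 in TNFR2- replicates 1 to 4. The groups were separated by 124 normalized counts, between TNFR2+ replicate 4 and TNFR2- replicate 3. The means were 1911 ± 448 and 3292 ± 443 (SD, n = 4), for a log2 fold change of -0.80 (standard error 0.16, 95% interval -1.15 to -0.45, limma adjusted p = 0.00838). Without TNFR2- replicate 3 it was -0.90 (limma adjusted p = 0.0047). Ikaros and Aiolos are also abundant in B cells, and the part of the B cell markers given above in these differences was not tested.

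Ikzf5 (chr7:131388652-131410521), the most distant member by sequence, was low and variable. It ranged from 233 to 397 normalized counts in TNFR2+ and from 264 to 690 in TNFR2- Tregs, so the groups overlapped. The log2 fold change was -0.48 with a 95% interval of -1.09 to 0.13 (limma adjusted p = 0.340, exact permutation p = 0.229). It was -0.25 without TNFR2- replicate 2 and -0.71 without TNFR2- replicate 1. Pstk, the gene opposite to it, averaged 52.7 and 43.6 normalized counts in the TNFR2+ and TNFR2- groups and did not pass the test (limma adjusted p = 0.757).

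TNFR2+ replicate 4 and TNFR2- replicate 3 lay nearest to the opposite group in Ikzf1, Ikzf2 and Ikzf3. TNFR2+ replicate 4 had the highest Ikzf1 and Ikzf3 and the lowest Ikzf2 and Ikzf4 of its group, and TNFR2- replicate 3 had the lowest Ikzf1 and Ikzf3 and the highest Ikzf2 of its group. These libraries were also the nearest to the opposite group on the first principal component, which held 29.41% of the variance, with values of -27.6 and 26.7.

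**Figure D2:**
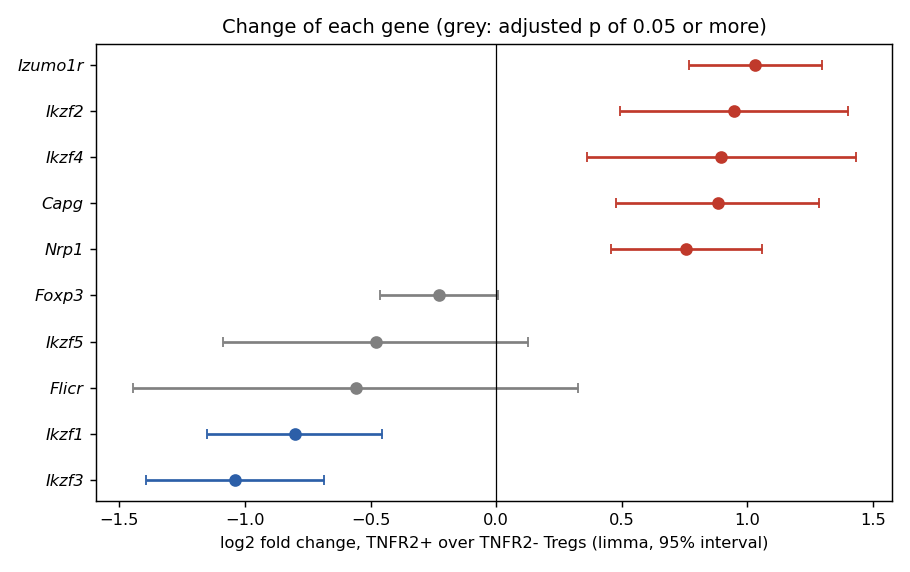
Log2 fold change of each gene in TNFR2+ over TNFR2- Tregs from limma (horizontal axis), with points for the estimate and bars for the 95% interval, in red or blue where the adjusted p was under 0.05 and grey otherwise. Ikzf1 and Ikzf3 lie left of 0 and Ikzf2, Ikzf4, Nrp1, Izumo1r and Capg right of it, while the intervals of Foxp3, Flicr and Ikzf5 include 0.

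The differences between family members were tested through the log2 ratio of one gene to another within a library, which does not depend on how the library was scaled. In 4 of the 10 pairs the ratios of the groups did not overlap, and these were the 4 pairs that set Ikzf2 or Ikzf4 against Ikzf1 or Ikzf3. This had to follow, since each of these genes alone separated the groups, in opposite directions. These 4 pairs therefore restate the results of the single genes and give the size of the shift. The log2 ratio of Ikzf2 to Ikzf3 was 3.29, 2.76, 3.04 and 2.29 in TNFR2+ replicates 1 to 4 and 1.05, 0.61, 1.81 and -0.03 in TNFR2- replicates 1 to 4. In TNFR2- replicate 4 the pair had nearly equal normalized counts. The group means differed by 1.99, a 3.96-fold shift. The ratio of Ikzf1 to Ikzf2 shifted by -1.75, that of Ikzf1 to Ikzf4 by -1.70 and that of Ikzf3 to Ikzf4 by -1.94. Each of these 4 had an exact permutation p of 0.0286, the smallest possible, and an exact p of 0.0714 after adjustment over the 10 pairs, so 0 of 10 pairs passed after adjustment. With only 4 of the 10 pairs at the smallest possible p, none of them could pass this adjustment. The adjusted result therefore cannot decide whether the members differ.

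Pairs that moved in the same direction showed smaller shifts. The ratio of Ikzf2 to Ikzf4 shifted by 0.05 (adjusted exact permutation p = 0.943), with group ranges of 2.67 to 3.60 in TNFR2+ and 2.29 to 3.62 in TNFR2- Tregs. The ratio of Ikzf1 to Ikzf3 shifted by 0.24 (adjusted exact permutation p = 0.179), since Ikzf3 fell by more than Ikzf1. The ratio to Ikzf5 shifted by -0.32 for Ikzf1 and -0.56 for Ikzf3 (adjusted exact permutation p = 0.444 and 0.163). Ikzf2 and Ikzf4 moved opposite to the estimate of Ikzf5. Their ratios to Ikzf5 shifted by 1.43 and 1.38 (adjusted exact permutation p = 0.0952 for each). All of these ratios to Ikzf5 overlapped between the groups.

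Levels were compared between genes per kilobase of the longest annotated transcript. On this scale the share of Ikzf2 in the summed level of the 5 Ikaros genes was 51.9% ± 4.83 in TNFR2+ and 28.0% ± 9.86 in TNFR2- Tregs (SD, n = 4). It was 44.9% to 55.9% across TNFR2+ libraries and 17.7% to 40.2% across TNFR2- libraries. The share of Ikzf1 was 18.5% ± 5.06 against 31.3% ± 3.53, and that of Ikzf3 was 14.7% ± 3.10 against 30.0% ± 5.46. Ikzf4 took 11.4% ± 4.14 and 5.76% ± 0.567, and Ikzf5 took 3.47% ± 0.826 and 5.01% ± 1.94. Helios transcripts were thus the most abundant of the family in all 4 TNFR2+ libraries, whereas in TNFR2- Tregs Ikzf1, Ikzf2 and Ikzf3 had overlapping shares. A length from merged exons kept the share of Ikzf2 near these values (53.0% and 29.7%) and lowered that of Ikzf3 to 9.92% and 21.1%. With that length the TNFR2- shares of Ikzf1 (31.1% to 41.2%) and Ikzf3 (15.9% to 26.1%) no longer overlapped.

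**Figure D3:**
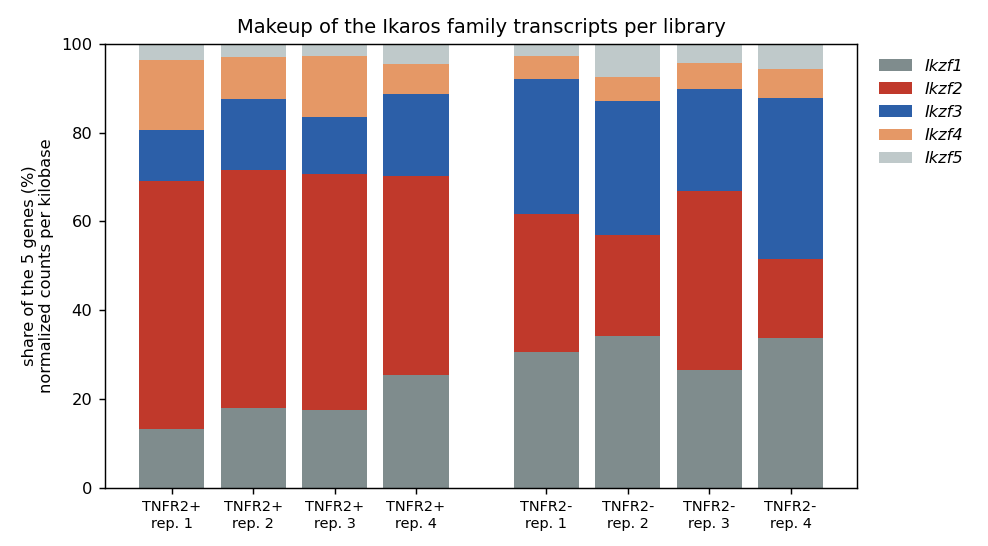
Share of each Ikaros family gene (%) in the summed normalized counts per kilobase of the 5 genes, one stacked bar per library, with each bar totalling 100%. The red Ikzf2 part is 44.9% to 55.9% of TNFR2+ bars and 17.7% to 40.2% of TNFR2- bars, and the blue Ikzf3 and dark grey Ikzf1 parts are larger in TNFR2- bars.

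Among all 10 genes on the same scale, Izumo1r had the highest level in TNFR2+ Tregs at 1987 ± 63.3 normalized counts per kilobase (SD, n = 4). It was followed by Nrp1 (1073 ± 88.6) and Ikzf2 (1052 ± 152), which did not differ beyond their spread, and by Foxp3 (815 ± 57.1) and Capg (629 ± 99.4). In TNFR2- Tregs, Izumo1r (976 ± 117) and Foxp3 (956 ± 82.3) led and were within their spread of each other. Nrp1 (642 ± 123), Ikzf1 (638 ± 85.8), Ikzf3 (610 ± 111) and Ikzf2 (569 ± 195) followed with overlapping values. Flicr was the lowest in both groups, at 16.2 ± 5.61 and 23.9 ± 8.10. This order depends on the length used. With merged exons the level of Nrp1 in TNFR2+ Tregs was 400 ± 33.0 and that of Ikzf2 was 841 ± 121 (SD, n = 4), so that they differed beyond their spread, and in TNFR2- Tregs Foxp3 ranked 1 and Izumo1r ranked 3.

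The surface markers Nrp1 and Izumo1r were higher in TNFR2+ Tregs, with the groups well separated. Izumo1r (chr9:14885814-14903949) measured 2599, 2479, 2662 and 2519 normalized counts in TNFR2+ replicates 1 to 4 and 1349, 1034, 1323 and 1335 in TNFR2- replicates 1 to 4. The 4 TNFR2+ libraries had a coefficient of variation of 3.19%, and TNFR2- replicate 2 was lower than the rest of its group. The means were 2565 ± 81.8 and 1260 ± 151 (SD, n = 4). The log2 fold change of 1.03 (standard error 0.12, 95% interval 0.767 to 1.298, limma adjusted p = 4.86e-04) had the smallest adjusted p of the 10 genes.

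Nrp1 (chr8:128358604-128503363) measured 3823, 3849, 4369 and 3609 in TNFR2+ replicates 1 to 4 and 2764, 1922, 2691 and 1987 in TNFR2- replicates 1 to 4. The highest TNFR2- library was 846 normalized counts below the lowest TNFR2+ library. The means of 3913 ± 323 and 2341 ± 448 (SD, n = 4) gave a log2 fold change of 0.76 (standard error 0.14, 95% interval 0.46 to 1.06, limma adjusted p = 0.00499).

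Capg (chr6:72544391-72562983) measured 992, 926, 927 and 677 in TNFR2+ replicates 1 to 4, and 557, 350, 496 and 514 in TNFR2- replicates 1 to 4. TNFR2+ replicate 4 was again the lowest of its group. The means were 881 ± 139 and 479 ± 89.9 (SD, n = 4), which gave a log2 fold change of 0.88 (standard error 0.19, 95% interval 0.48 to 1.29, limma adjusted p = 0.0112). Capg is also abundant in myeloid cells, whose summed markers overlapped between the groups, and their part in this difference was not tested.

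Genes known to control the Foxp3 locus changed in both directions. Of 28 listed and tested, 5 were called higher and 6 lower in TNFR2+ Tregs, where 4.52% and 3.39% of all genes tested were called, and the median log2 fold change was -0.12. Rel, the NF-kB subunit that acts on an intronic Foxp3 enhancer, rose by 0.89 on the log2 scale (7399 ± 402 against 4015 ± 493, SD, n = 4). Nr4a2 rose by 1.50 while its relative Nr4a1 fell by 0.98, although both are nuclear receptors induced by antigen receptor signalling. Uhrf1, which maintains DNA methylation during replication, rose by 2.89. Satb1, a chromatin organizer that prepares Treg enhancers in the thymus, fell by 1.92 (1670 ± 361 against 6352 ± 1483, SD, n = 4), and Tet3, which demethylates DNA, fell by 0.74.

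Of 25 listed genes for proteins that bind Foxp3, 23 were tested. Of these, 5 were called higher and 1 lower, beside 4.52% and 3.39% of all genes, with a median of 0.05. The higher ones were the deacetylases Hdac7 (0.74) and Hdac9 (1.36), the transcription factors Gata3 (0.63) and Rora (0.95), and the hypoxia factor Hif1a (0.65). The lower one was the forkhead factor Foxp1 (-0.96, 2941 ± 665 against 5709 ± 1140, SD, n = 4).

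Of the targets that Foxp3 is known to induce, those called were all higher in TNFR2+ Tregs, while Foxp3 itself was not called. Of 19 tested, 11 were called higher and 0 lower by limma, beside 4.52% and 3.39% of all genes. At an unadjusted p under 0.05 in either direction there were 16, beside 3211 of all 13990 genes. Their median log2 fold change was 0.89, beside -0.0095 over all genes tested. The lists of Foxp3 targets were chosen with earlier results of these data known, so these shares are descriptive and not independent evidence. Cd83 rose by 2.34 and Tnfrsf9, which encodes 4-1BB, by 2.66. The IL-2 receptor subunit Il2rb rose by 0.86, the inhibitory receptor Ctla4 by 0.89 (4436 ± 505 against 2400 ± 345, SD, n = 4), Tnfrsf18 (GITR) by 0.88 and Tnfrsf4 (OX40) by 1.42. Il2ra and Entpd1 did not pass. Il2ra, which encodes CD25, had a log2 fold change of -0.34 (limma adjusted p = 0.0860) with groups that did not overlap, 2561 to 3070 in TNFR2+ and 3219 to 3990 in TNFR2- Tregs. Entpd1, which encodes CD39, had 0.80 with overlapping groups (limma adjusted p = 0.356).

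Of the targets that Foxp3 is known to repress, those called were all lower. Of 12 listed, 9 were tested, with 0 called higher and 4 lower by limma, beside 4.52% and 3.39% of all genes. At an unadjusted p under 0.05 in either direction there were 6, beside 3211 of all 13990 genes, and the median was -0.39. By direction alone, 4 of the 9 were higher and 5 lower. The higher ones, none of them called, were Ifng (0.76), Il21 (1.09), Cd40lg (0.46) and Ptpn22 (0.23). Ifng was among the 6, with an unadjusted limma p of 0.0459. The 4 called lower were Satb1, also a locus regulator above, the naive-state factors Lef1 (-1.34) and Tcf7 (-0.45), and the phosphodiesterase Pde3b (-2.81, from 173 ± 85.8 in TNFR2- to 23.6 ± 9.62 in TNFR2+ Tregs, SD, n = 4).

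For the genes that work with the Ikaros proteins, counts of calls are again set beside the 7.91% called among all genes. Of 17 genes for the deacetylase and corepressor complexes that Ikaros proteins recruit, 1 was higher (Hdac2, 0.93) and 1 lower (Chd3, a remodelling ATPase, -0.52), with a median of 0.03. Cereblon and its ubiquitin ligase partners, through which immunomodulatory drugs degrade Ikaros and Aiolos in human cells, had 0 of 5 called by limma. At an unadjusted limma p under 0.05 there was 1, beside 3211 of all 13990 genes, and the median was 0.26.

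For the partners of the remaining genes, 12 of 22 neuropilin ligands and coreceptors were tested, with 3 called higher, 1 lower and a median of 0.02, where 7.91% of all genes were called in either direction. Plxnd1, a semaphorin receptor, rose by 1.45, and Tgfb1, whose product binds neuropilin-1, rose by 0.54. Vegfc measured at least 16.9 normalized counts in each TNFR2+ library and was listed at 0 in 2 TNFR2- libraries, with no more than 3.45 in the others, so its fold change depends on the pseudocount. Sema4a fell from 266 ± 57.6 to 42.4 ± 33.1 (SD, n = 4), a log2 fold change of -2.96. Of the gelsolin family and actin capping genes, 11 of 13 were tested, and Scin, which severs actin filaments, was the 1 called (2.49), a share close to that of all genes. Of the folate receptor family and Izumo1, 0 of 3 passed the filter.

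**Figure D4:**
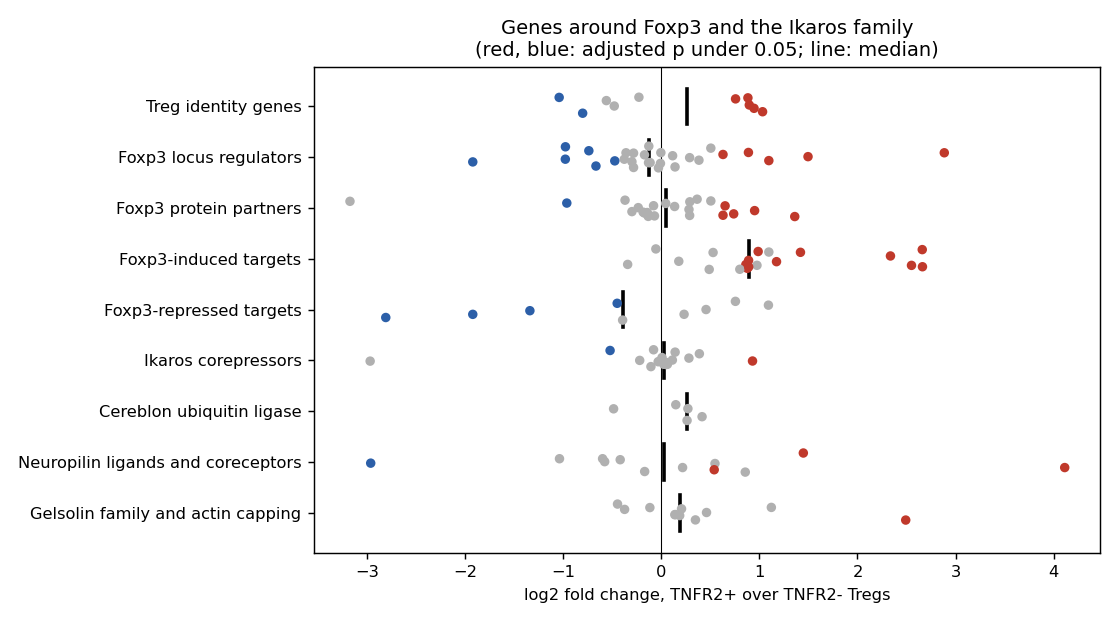
Log2 fold change (TNFR2+ over TNFR2- Tregs, horizontal axis) of the 10 Treg identity genes and of the tested genes of 8 related lists, one point per gene, red or blue where the limma adjusted p was under 0.05, with black lines at list medians. The Foxp3-induced targets have a median of 0.89 and the Foxp3-repressed targets one of -0.39, while the Foxp3 protein partners and Ikaros corepressors lie around 0.

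The pattern across libraries within the groups was described by the Pearson correlation of deviations from the group means over the 8 libraries, among 10244 genes with a mean of at least 50. All points share their libraries and scaling, and no p is given. Nearest to Foxp3 were Elp3 (0.985), Samhd1 (0.983), Smpd1 (0.979), Cars (0.975) and Kctd10 (0.972). Among the nearest to Ikzf2 were Rin2 (0.991), Ier5l (0.982), Tox (0.980) and Vopp1 (0.974). Between the 10 genes, Ikzf2 and Nrp1 varied together (0.777), while Ikzf2 varied opposite to Foxp3 (-0.886) and to Ikzf3 (-0.749). Foxp3 and Flicr, which share sequence, had a correlation of 0.305.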

How the data were processed

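RNA of TNFR2+ and TNFR2- Tregs was compared, 4 libraries each. The authors made stranded total RNA libraries, trimmed reads, estimated transcript abundance with Salmon 1.3.0 on the GRCm38 transcriptome, and deposited normalized counts per gene from DESeq2 1.28 (a signal already divided by size factors). The step from transcripts to genes was not given in the sources used here. Estimated depths were 9100000 to 12110000 reads per library. These depths rest on steps of whole reads, looked for only in low values of genes with a single transcript. In a library, 69.7% to 96.4% of those values lay near a step, against 20% by chance. No count model was fitted to the already scaled values.

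Identifiers were matched to GENCODE (20008 of 20172). Genes with a mean of at least 10 were tested with limma 3.58.1 (R 4.3.3) with an intensity trend on log2(value + 1), two-sided, with Benjamini-Hochberg adjustment over 13990 genes and a threshold of 0.05, and the procedure was tested on simulated data. Fold changes are on that log2 scale and understate changes of low genes. Ratios used exact permutation tests. Alternatives were other pseudocounts, filters, scalings, moderation and weights, a replicate block, and leaving out each library. Summing Foxp3 and Flicr was added after seeing the data. The genes, lists and markers were chosen with earlier results of these data known. All 10 genes are named, and from each list at most the 6 called genes with the smallest adjusted p, plus Il2ra, Entpd1 and Ctla4. The uncalled Foxp3-repressed targets that were higher are named as well. For Foxp3 and Ikzf2 the 5 genes nearest in pattern are named, except 1 near Ikzf2 that is not reported here. Other steps ran in python 3.11.15.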

Additional observations from a re-analysis of the deposited data

Results flagged for a closer look

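Izumo1r in TNFR2- replicate 2 was far from the rest of its group. It measured 1034 normalized counts, and the other 3 TNFR2- libraries measured 1323 to 1349, so that its gap to the nearest of them was 0.919 of the range of the group. It was the only library picked out among the 20 groups checked, and chance picks out about 1 in 20. Without this library the log2 fold change of Izumo1r was 0.94 (limma adjusted p = 0.00167), against 1.03 with it.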

How the results depend on the processing

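Ikzf3 and Izumo1r passed under all 10 alternatives to the processing and without any single library. Without the intensity trend in the moderated variances, 465 genes were called (283 higher and 182 lower), of the 10 genes 1 was called higher and 1 lower, and 5 kept their direction but not their call: Ikzf1 at -0.80, Ikzf2 at 0.95, Ikzf4 at 0.90, Nrp1 at 0.76 and Capg at 0.88 (limma adjusted p of 0.0804, 0.108, 0.147, 0.0669 and 0.0649). With weights per library, Ikzf4 was at 0.87 (limma adjusted p = 0.0508). Leaving out 1 library at a time gave 636 to 1324 called genes, 339 to 777 higher and 279 to 547 lower. Of the 10 genes it gave 3 to 5 called higher, with the fewest without TNFR2- replicate 2, where Ikzf2 and Ikzf4 were lost. The log2 fold change was 0.73 to 1.12 for Ikzf2 and 0.67 to 1.15 for Ikzf4, and the shift of the Ikzf2 to Ikzf4 ratio ranged from -0.21 to 0.23, changing sign. Values rescaled to a common sum without mitochondrial genes, Gm26917 and Gm42418 called 838 genes higher and 361 lower, against 633 and 474, with the median of all genes at 0.08, and kept the call and direction of the 7 genes. Foxp3 summed with Flicr had a log2 fold change of -0.24, against -0.23 for Foxp3 alone. The cause of these changes was not tested.

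With the replicate number as a replicate block, 1183 genes were called (675 higher and 508 lower) and no call among the 10 genes changed. Libraries with the same number did not deviate together (correlations of -0.039 to 0.001), so the numbers were not taken as pairs. Depth limits Flicr most, at 29.4 to 114.6 normalized counts, and reads shared by Foxp3 and Flicr, or by Ikzf5 and its overlapping genes, cannot be reassigned from these values.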
